A study of Mus musculus with 14 samples.

Results

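The genes of voltage-gated ion channels and of their subunits were described across Notch1+ cells and whole retinas of C57BL/6 mice on day 14 of embryonic life (E14) and on the day of birth (P0). The Notch1+ cells were taken from papain-dissociated retinas with a biotin-conjugated antibody against Notch1 and magnetic microbeads, so that this group is a sort on 1 surface protein and not a single cell type, while a Retina sample holds all retinal cells, those with Notch1 included. RNA of each sample was amplified, labeled with biotin and hybridized alone to 1 MEEBO oligonucleotide array, giving 3 E14 Notch1+, 3 E14 Retina, 4 P0 Notch1+ and 4 P0 Retina arrays, described by the submitters as independent biological replicates. The members were the mouse probes whose transcript maps to a protein-coding gene with a symbol that starts with Kcn, Cacn or Hcn, or with Scn and a number. There were 170 such probes for 111 genes among 34312 mouse probes. A probe was taken as above background on an array where the median of the spot was over that of the background around it by more than 2 SDs of the latter, and the 47 channel probes of 44 genes that did so on at least 3 of the 14 arrays were kept, as were 13683 mouse probes in all. The members were thus chosen by their brightness on these arrays, so that detection is given below as a description with no test. Intensities are normalized linear scanner readings, and the level of 1 probe cannot be set against that of another.

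Voltage-gated channels open or close with the voltage across the membrane. Sodium channels start the action potential, calcium channels couple voltage to transmitter release and to signaling, and potassium channels and Hcn channels return the membrane to rest or set its rhythm. Each is built of a pore-forming subunit and of accessory subunits that set its number at the surface and its gating. In the developing retina, dividing progenitors give rise to ganglion, amacrine and horizontal cells and photoreceptors, which acquire these channels as they become excitable. The selection by symbol is wider than the name voltage-gated: Kcnj genes (inward rectifiers), Kcnk genes (leak channels) and Kcnn genes (channels opened by calcium) do not have a classical voltage gate, and Kcnip, Kcnab, Kcne, Kcnmb, Cacng and the beta genes encode accessory subunits that do not form a pore.

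Most channel genes were not measurable on these arrays. Of the 170 channel probes, 108 were above background on 0 arrays, 9 on 1 and 6 on 2, and 123 probes were not kept, so that 67 of the 111 genes have no kept probe. No probe was kept for Kcns, Kcnf, Kcnt, Kcnu or Kcnrg genes, and of 18 probes for 13 Kcnj genes the probe of Kcnj4 alone passed. The alpha2delta subunits of calcium channels were the family best covered, with 4 of 5 probes kept, while 2 of 9 probes for sodium channel alpha subunits and 5 of 20 for calcium channel alpha1 subunits were kept. Of the kept genes, 18 had a further probe that was not kept, and 23 of these 25 further probes were above background on 0 arrays, among them probes of Scn8a, Cacna2d2, Kcng4 and Kcnip4. A kept value of such a gene therefore rests on 1 of its probes.

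P0 Retina had the most channel probes above background. Of the 47 kept probes, 38 to 45 were above background on a P0 Retina array, 22 to 29 on a P0 Notch1+ array, 23 to 32 on an E14 Retina array and 16 to 19 on an E14 Notch1+ array. Over all mouse probes, kept or not, 11345 to 13547 were above background on a P0 Retina array and 9764 to 10719 on a P0 Notch1+ array. On an E14 Retina array they were 10610 to 11975 and on an E14 Notch1+ array 9332 to 10648. The kept probes were chosen by this same limit, so that their shares cannot be set against those of all mouse probes. The 11 probes above background on all 14 arrays were those of Cacna1h, Cacna2d2, Cacna2d3, Cacng4, Kcnab2, Kcnh2, Kcnk1, Kcnmb4 and Kcnn1 and both of Cacnb3. 6 channel genes, Hcn2, Kcna5, Kcnd2, Kcnip1 and Kcnk2 among them, were above background in P0 Retina only, and Kcng4 in E14 Notch1+ cells only. Without the P0 Retina arrays 15 of the 47 probes would have been above background on fewer than 3 arrays, so that these passed through the group in which they were bright and had to differ from the others. The same holds for Kcng4 without E14 Notch1+, for Scn3b and Cacna1c without E14 Retina and for 1 probe without P0 Notch1+. For such a member a comparison with that group is given below as a description and not as a test. Just inside the limit, on exactly 3 arrays, were Cacna1c, Kcnd2 and Kcng4. Just outside it, on 2 arrays, were Cacna1f, Kcnab1, a second probe of Kcnc4, both probes of Kcnma1 (2 P0 Retina arrays each) and Kcnj14 (2 P0 Notch1+ arrays). Their intensities overlapped those of the kept probes, at 109 to 178 for Cacna1f, 127 to 164 for Kcnab1 and 122 to 166 for Kcnc4 in P0 Retina and 133 to 269.8 for Kcnj14 in P0 Notch1+ cells.

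**Figure D1:**
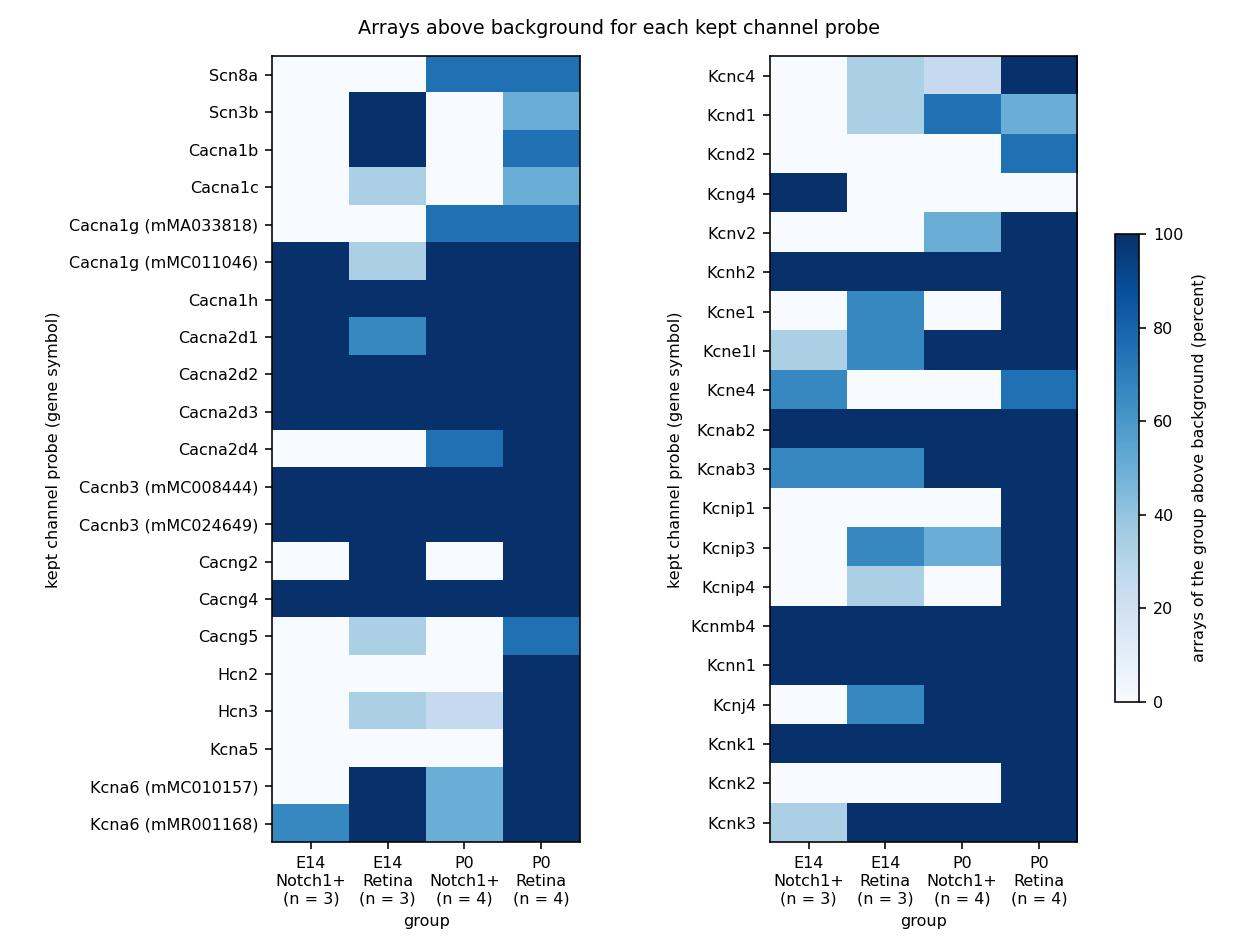
Percent of the arrays of each group (columns, 3 or 4 arrays) on which each of 41 of the 47 kept channel probes (rows, ordered by family) was above background. The P0 Retina column is filled for most probes, with 31 of 41 above background on all 4 arrays, while 22 of 41 were above background on no E14 Notch1+ array.

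The sorted antigen was higher in the sorted cells, and most tested markers of young neurons and of ganglion cells were lower there. At E14, Notch1 read 27725 ± 5527 (SD, n = 3) in the Notch1+ group against 9837 ± 2293 (SD, n = 3) in the Retina group, and 34947 ± 14382 (SD, n = 4) against 12784 ± 1571 (SD, n = 4) at P0. Of 10 tested markers of young neurons, such as Dcx and Sncg, 6 were lower in Notch1+ cells at E14 and 7 at P0, and the summed intensity of the 10 was 19956 to 23398 in E14 Notch1+ cells against 51112 to 52523 in E14 Retina, and 11444 to 15668 against 21567 to 30753 at P0. Of 9 tested markers of ganglion cells, 6 were lower at E14 and 7 at P0, with sums of 2344 to 3140 against 15784 to 20822 and of 852 to 1194 against 6926 to 10950, and 8 of the 9, Sncg, Isl1 and Thy1 among them, were above background on no P0 Notch1+ array. Of 11 tested markers of amacrine and horizontal cells, 2 were lower and 1 higher at E14 and 6 were lower at P0 (sums of 4153 to 5049 against 8858 to 16067), with Gad1, Lhx1 and Slc32a1 above background on no P0 Notch1+ array. Of 7 tested markers of photoreceptor precursors, 1 was higher and 1 lower at E14 and 4 were lower at P0, with sums of 22855 to 30898 in Notch1+ cells against 9816 to 11295 in Retina at E14 and of 39564 to 44988 against 37127 to 50324, which overlapped, at P0. Their median log2 fold change was 0.35 at E14 and -1.23 at P0. The list holds Otx2, which the paper ranks among the brightest genes of E14 Notch1+ cells, and bright genes dominate a sum. Of 15 tested markers of progenitors and Müller glia, 2 were higher and 1 lower at each stage (sums of 109789 to 118525 against 144734 to 161431 at E14 and of 103589 to 138335 against 93435 to 101420 at P0). These 15 include Notch1, the sorted antigen, so that the counts and sums are not independent of the sort. Thy1, Gad1, Lhx1 and Rcvrn were above background on P0 Retina arrays only, so that the background limit fixed their direction at P0. In bulk samples, fewer cells of a type and less RNA per cell cannot be told apart, and the part of these cell types in the channel results was not tested.

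Of the tested markers of endothelial cells (8), pericytes (3), astrocytes (3), microglia (3), pigment epithelium (4), lens (4) and erythroid cells (4), 1 pericyte gene was lower in Notch1+ cells at E14, and at P0 3 endothelial genes were higher and 1 astrocyte, 1 microglia and 2 pigment epithelium genes were lower. Their summed intensities nevertheless differed with no overlap in several groups. Those of endothelial markers were higher in Notch1+ cells, at 1485 to 3943 against 1226 to 1411 at E14 and 3573 to 6658 against 2066 to 2577 at P0. At E14 the other 6 sums were lower in Notch1+ cells, at 1107 to 1250 against 2069 to 2674 for pericytes, 284 to 292 against 334 to 408 for astrocytes, 334 to 416 against 446 to 466 for microglia, 370 to 387 against 501 to 584 for pigment epithelium, 340 to 369 against 571 to 3726 for lens and 1679 to 2031 against 2232 to 7776 for erythroid cells. None of the tested astrocyte, microglia, pigment epithelium and lens genes was above background on any E14 Notch1+ array. For 2 of the 3 astrocyte genes the same held in E14 Retina. The sizes of these E14 differences are thus not known. At P0 the astrocyte sums were also lower (377 to 512 against 573 to 822) and the other 5 of the 6 sums overlapped. The pericyte list includes Notch3, which the paper also places in retinal neurogenesis, so that its sums need not reflect pericytes. The part of these populations in the channel results was not tested. Of 9 tested immediate early genes, which cells induce within minutes of a stimulus, 6 were higher in Notch1+ cells at E14 and 7 at P0, with sums of 15231 to 19444 against 3604 to 5390 and of 44248 to 83410 against 4936 to 6380. The paper describes dissociation and sorting for the Notch1+ cells and neither step for the whole retina samples. Handling and population therefore cannot be told apart at either stage, and the part of handling in the channel results was not tested. The 6 E14 arrays shared 1 scan day, the P0 Notch1+ arrays had another and the P0 Retina arrays one more, so that scan day and group cannot be told apart at P0 or between the stages. A re-dip mark is carried by the scans of E14 Notch1+ replicates 1 and 3, P0 Notch1+ replicate 2 and all Retina arrays. What was done to these arrays is not stated, and a repeated dip is a reading of the word alone.

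More channel probes were called lower than higher in Notch1+ cells relative to whole retina. At E14, 1 of the 47 probes was called higher and 6 lower (limma, Benjamini-Hochberg over all tested probes, adjusted p under 0.05), beside 2.69% of all tested probes called higher and 3.22% lower (5.91% either way). At P0, 2 were called higher and 17 lower, beside 8.95% and 10.7% of all tested probes (19.7% either way). Counted by gene, with the brighter probe of Cacna1g, Cacnb3 and Kcna6, this was 1 of 44 higher and 6 lower at E14 and 1 higher and 16 lower at P0. The median log2 fold change of Notch1+ over Retina was -0.10 over the member probes at E14 and -0.25 at P0, beside 0.01 over all tested probes at both stages. 5 probes, those of Cacng2, Cacng5, Scn3b and 1 of Kcna6 among them, were called lower at both stages, beside 2.01% of all tested probes, and 0 were called higher at both. Of those named, Cacng5 passed the background limit through P0 Retina and Scn3b through E14 Retina, so that the limit fixed their direction against that group. Of the 17 lower at P0, 10 were among the 15 probes that passed the background limit through P0 Retina, whose direction that limit fixed, and of the other 32 probes 2 were higher and 7 lower. At E14 the 1 higher (Kcng4) and 1 of the 6 lower (Scn3b) likewise passed through the brighter group, and the medians include all such probes. The number higher at P0 depended on the scaling: with each array set to 1 median or to 1 common 75th percentile, which shifted the median over all tested probes by 0.28 and 0.37 (log2), 10 and 11 members were called higher and 13 and 12 lower, and with the authors' value table (shift -0.19) 0 and 18. Once the re-dip mark was a covariate, 0 were higher and 14 lower at P0.

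**Figure D2:**
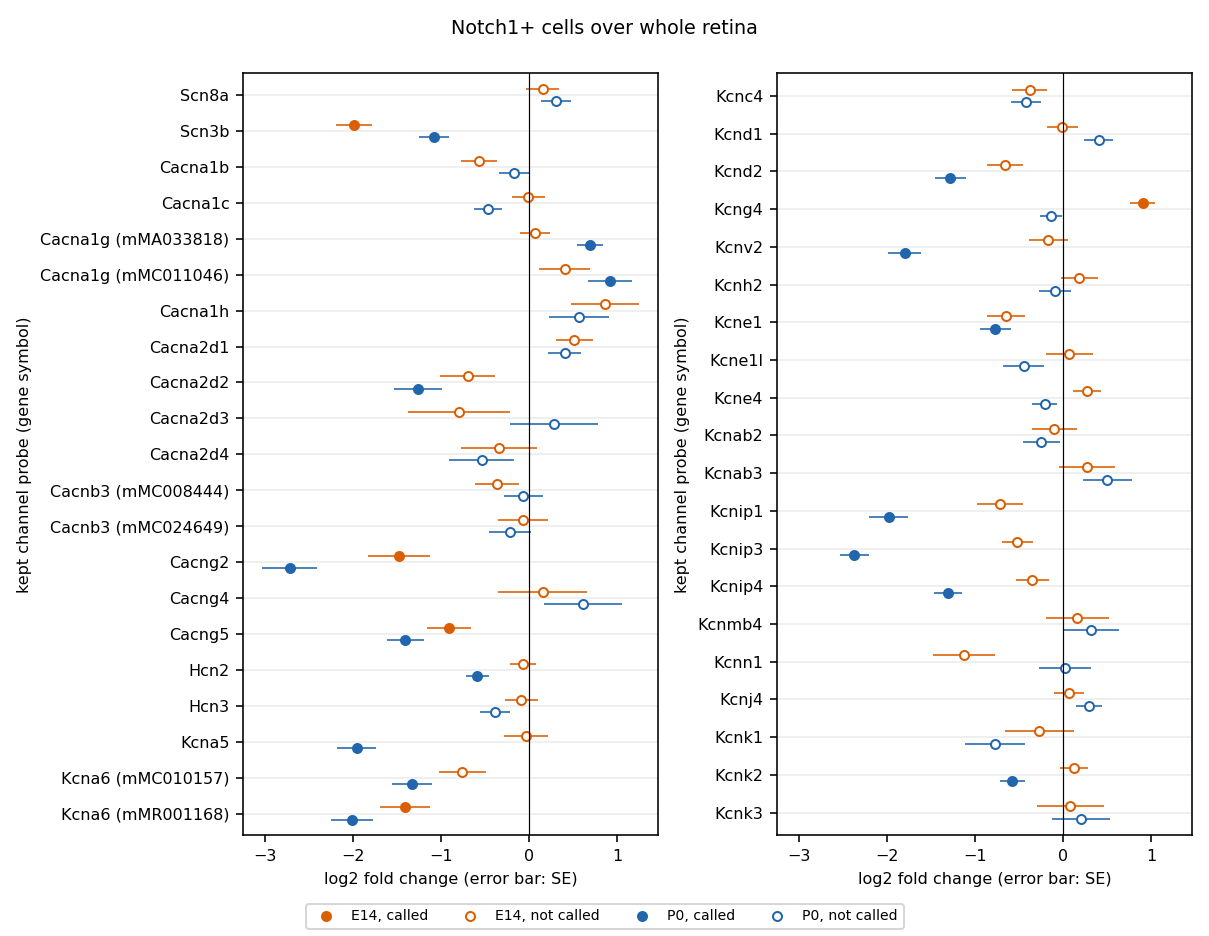
Log2 fold change of Notch1+ cells over Retina for 41 of the 47 kept channel probes, at E14 (orange, 3 against 3 arrays) and at P0 (blue, 4 against 4 arrays), with the SE from limma as error bars and filled circles for an adjusted p under 0.05. A difference against a group below background is as measured and not a fold. Filled circles lie mostly to the left of 0 at P0, with Cacng2 and Kcnip3 farthest, and Cacna1g and Kcng4 are the called genes to the right.

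Of the pore-forming sodium channel subunits, Scn8a, a sodium channel of the axon initial segment, was above background on no E14 array and on 3 of 4 arrays of each P0 group. It read 175, 129.6, 216 and 196 in P0 Notch1+ cells and 138, 141, 169 and 126 in P0 Retina, which overlapped, and it was called in none of the comparisons (Notch1+ over Retina at P0, log2 change of 0.30, adjusted p = 0.226, SE 0.17).

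Scn3b, a sodium channel beta subunit that modifies gating in neurons, was higher in Retina than in Notch1+ cells. It read 218, 329.9 and 286 in E14 Retina and 62.5, 69.5 and 76.3 in E14 Notch1+ cells, and 145, 128, 127 and 185 in P0 Retina and 74.0, 64.5, 75.8 and 60.3 in P0 Notch1+ cells. No Notch1+ array was above background, all Retina arrays were above all Notch1+ arrays, and the E14 Retina arrays were above the P0 Retina arrays. It was at least 1.89-fold lower in Notch1+ cells at E14, a description since Scn3b passed the background limit through E14 Retina. At P0 it was also called lower (adjusted p = 0.000796), with no fold that the background allowed, and the call was lost with each array set to 1 median or to 1 common 75th percentile (adjusted p = 0.142 and 0.253).

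Both kept genes of T-type calcium channels, which open at low voltage, had their highest mean in P0 Notch1+ cells. Cacna1g read 716, 379.6, 847 and 493 in P0 Notch1+ cells, 347, 368, 213 and 326 in P0 Retina, 213, 156 and 168 in E14 Notch1+ cells and 126, 149 and 128 in E14 Retina with the brighter of its 2 kept probes. All P0 Notch1+ arrays were above all others. Its second probe showed the same order at P0, with 216, 212, 244 and 259.8 in Notch1+ cells and 152, 146, 128 and 149.5 in Retina, and was above background on no E14 array. The log2 fold changes of P0 Notch1+ over Retina were 0.92 (adjusted p = 0.0197, SE 0.25) and 0.69 (adjusted p = 0.00535, SE 0.15). The first was lost without P0 Notch1+ replicate 1 or 3 or P0 Retina replicate 3 (adjusted p = 0.0569 to 0.0589), and both were lost with the authors' value table (0.72 and 0.98, adjusted p = 0.139 and 0.053) and once the re-dip mark was a covariate (0.69 and 0.60, adjusted p = 0.225 and 0.0883). In Notch1+ cells Cacna1g was lower at E14 than at P0 with both probes, with a log2 change of -1.71 (adjusted p = 0.00185, SE 0.27) for the brighter one and at least 1.6-fold lower for the other (adjusted p = 0.00116), and the brighter probe was also lower in E14 than in P0 Retina (log2 change of -1.20, adjusted p = 0.00983, SE 0.27).

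Cacna1h, the second T-type gene, also had its highest readings at P0. It read 2315, 1312, 3175 and 2611 in P0 Notch1+ cells, 968, 1292, 1766 and 2379 in P0 Retina, 1062, 879 and 591 in E14 Notch1+ cells and 398, 335 and 692 in E14 Retina. The stages did not overlap within either population, while Notch1+ and Retina arrays overlapped at both stages. E14 over P0 gave a log2 change of -1.45 (adjusted p = 0.0239, SE 0.37) in Notch1+ cells and a log2 change of -1.74 (adjusted p = 0.00688, SE 0.37) in Retina, and the former was lost without E14 Notch1+ replicate 2 or 3 or P0 Notch1+ replicate 3 or 4 (adjusted p = 0.0597 to 0.0859). Cacna1c, an L-type channel, was above background on 3 arrays in all, none of them of Notch1+ cells, and its call between E14 and P0 Notch1+ cells (adjusted p = 0.0271) compares 2 groups below background, so that no fold is given, and it was lost without any 1 of 5 of the arrays compared (E14 Notch1+ replicates 1 to 3 and P0 Notch1+ replicates 1 and 4, adjusted p = 0.0523 to 0.0904) and with 1 median (adjusted p = 0.526). Cacna1b, the N-type channel of presynaptic endings, was above background on 3 E14 Retina and 3 P0 Retina arrays and on 0 Notch1+ arrays, and read 162, 216 and 157 in E14 Retina and 95.2, 139 and 125 in E14 Notch1+ cells, which did not overlap but missed the threshold (at least 1.21-fold lower, adjusted p = 0.122).

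Of the accessory subunits of calcium channels, 2 of the 3 kept Cacng genes were lower in Notch1+ cells at both stages. Cacng2 encodes stargazin, which is counted with the calcium channel gamma subunits and is known for carrying AMPA-type glutamate receptors to synapses. It read 321, 265 and 215 in E14 Retina and 102, 86.3 and 95.8 in E14 Notch1+ cells, and 964, 599.5, 282 and 838 in P0 Retina and 108, 98.0, 85.8 and 80.5 in P0 Notch1+ cells. Every Retina array was above background and every Notch1+ array below it. It was at least 1.81-fold lower in the E14 Notch1+ group (adjusted p = 0.0244) and at least 4.21-fold lower at P0 (adjusted p = 5.15e-05), and lower in E14 than in P0 Retina (log2 change of -1.21, adjusted p = 0.0265, SE 0.33). The E14 call was lost without E14 Notch1+ replicate 1, 2 or 3 or E14 Retina replicate 1 or 2 (adjusted p = 0.0592 to 0.0905) and the Retina call without E14 Retina replicate 2 or 3 or P0 Retina replicate 1 or 4 (adjusted p = 0.0658 to 0.103). Cacng5, a related subunit, read 135, 216 and 142 in E14 Retina, 88.2, 86.3 and 82.2 in E14 Notch1+ cells, 213, 228, 120.3 and 187 in P0 Retina and 81.9, 64.5, 64.2 and 64.7 in P0 Notch1+ cells. It was at least 1.26-fold lower in Notch1+ cells at P0, a description since it passed through P0 Retina. Its call at E14 (at least 1.11-fold lower, adjusted p = 0.0449) was near the threshold and was lost without any 1 of 12 of the 14 arrays, P0 Retina replicates 2 and 3 being the exceptions (adjusted p = 0.0509 to 0.178). Cacng4 was above background on all 14 arrays and was called in no comparison (Notch1+ over Retina at P0, log2 change of 0.61, adjusted p = 0.364, SE 0.44).

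The alpha2delta subunits, which bring calcium channels to the membrane, were called for 1 of 4 kept genes, Cacna2d2. Cacna2d2 read 3044, 1947, 2793 and 2525 in P0 Retina and 841, 1144, 1491 and 896 in P0 Notch1+ cells, and 1011, 1367 and 1206 in E14 Retina and 437, 866 and 1023 in E14 Notch1+ cells. All P0 Retina arrays were above all others, with a log2 change of -1.26 (adjusted p = 0.00508, SE 0.27) of Notch1+ over Retina at P0 and a log2 change of -1.10 (adjusted p = 0.0216, SE 0.29) of E14 over P0 Retina. The stage call was lost without E14 Retina replicate 1 or 3 or P0 Retina replicate 1 or 3 (adjusted p = 0.051 to 0.0869). Cacna2d1 and Cacna2d3 were called in no comparison, and the 4 P0 Notch1+ arrays of Cacna2d3 ran from 311 to 1046. Cacna2d4, the alpha2delta subunit of photoreceptor endings, was above background on no E14 array, on 3 P0 Notch1+ arrays and on 4 P0 Retina arrays, where it read 722, 202, 290.4 and 184, and it passed the F-test over the 4 groups (adjusted p = 0.0238) but none of the 4 comparisons. Cacnb3, a cytoplasmic beta subunit, was above background on all arrays with both probes, and was called with neither, at -0.22 (adjusted p = 0.567, SE 0.24) and -0.07 (adjusted p = 0.857, SE 0.22) for Notch1+ over Retina at P0 on the log2 scale.

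**Figure D3:**
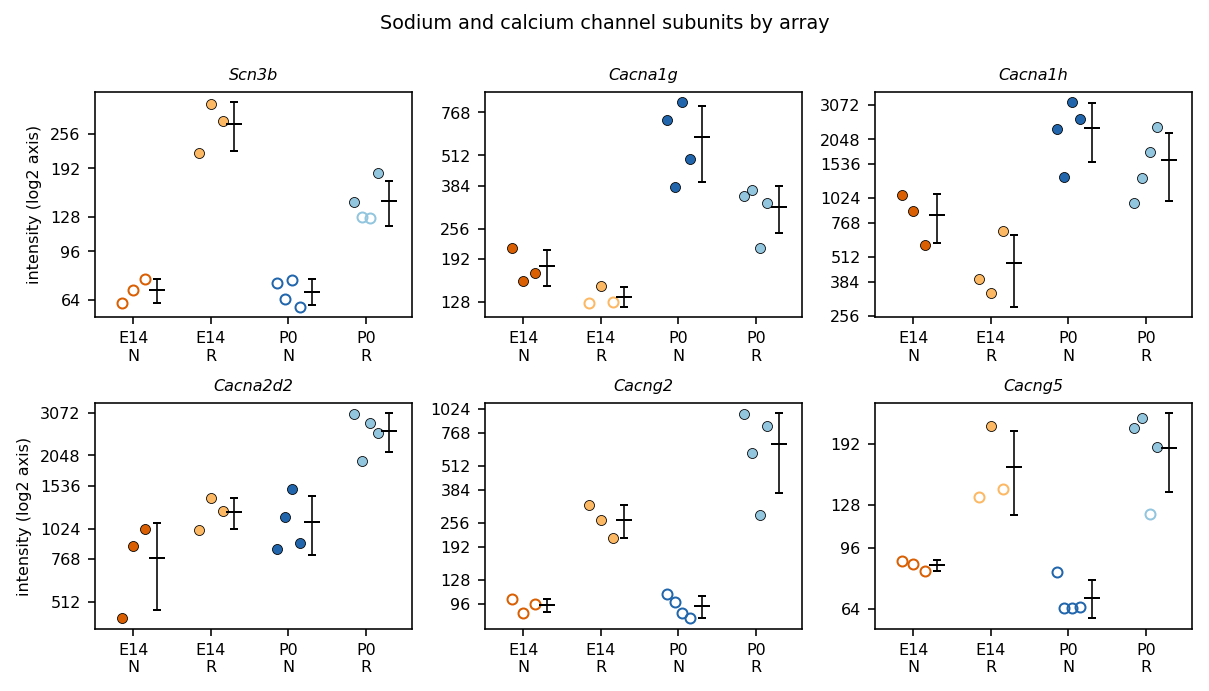
Normalized intensity (log2 axis) of 6 genes on each array of E14 Notch1+ (E14 N), E14 Retina (E14 R), P0 Notch1+ (P0 N) and P0 Retina (P0 R), with filled circles for arrays above background, open circles for the others and bars for the mean ± SD. Scn3b, Cacng2 and Cacng5 are open circles on every Notch1+ array, and Cacna1g is highest on the 4 P0 Notch1+ arrays.

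Hcn channels open when the membrane becomes more negative and carry pacemaker currents. Hcn2 was above background on the 4 P0 Retina arrays only, where it read 171, 185, 219 and 215, against 125, 133, 128 and 138 in P0 Notch1+ cells and 133, 126 and 125 in E14 Retina. The groups did not overlap, and it was lower by at least 1.45-fold in E14 Retina and 1.36-fold in P0 Notch1+ cells, a description since it passed through P0 Retina. With 1 common 75th percentile for each array the difference at P0 turned its direction (measured log2 difference 0.03). Hcn3 was above background on 6 arrays, 4 of them of P0 Retina, and was called in no comparison.

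Potassium channels of the Kcna to Kcnd families, which repolarize the membrane after an action potential, were called lower in P0 Notch1+ cells for 5 of 8 kept probes, Kcna5 and Kcnd2 among those that passed through P0 Retina, and higher for 0. Kcna5, a Shaker-type channel, read 294, 281, 193 and 476 in P0 Retina and 77.3, 78.6, 72.8 and 74.2 in P0 Notch1+ cells, and 113, 125 and 105 in E14 Retina and 129.8, 107 and 98.1 in E14 Notch1+ cells. It was above background in P0 Retina only, at least 2.19-fold above E14 Retina and 2.04-fold above P0 Notch1+ cells. Kcna6, another Shaker-type channel, was measured by 2 probes that moved alike. The brighter read 421, 538 and 412 in E14 Retina and 204, 146 and 167 in E14 Notch1+ cells, and 1231, 1126, 634.9 and 799.8 in P0 Retina and 286, 253, 242 and 153 in P0 Notch1+ cells. Retina arrays were above Notch1+ arrays at both stages with no overlap, with a log2 change of -1.41 (adjusted p = 0.00906, SE 0.28) at E14 and a log2 change of -2.01 (adjusted p = 8.47e-05, SE 0.24) at P0. The dimmer probe, below background on the 3 E14 Notch1+ arrays, missed the threshold at E14 (at least 1.51-fold lower, adjusted p = 0.122), and gave a log2 change of -1.33 (adjusted p = 0.00129, SE 0.23) at P0. Both were lower in E14 than in P0 Retina, at -1.01 (adjusted p = 0.0205, SE 0.26) and -0.81 (adjusted p = 0.0446, SE 0.25), calls that were lost without any 1 of 4 arrays (E14 Retina replicate 1 or 3, P0 Retina replicate 1 or 2, adjusted p = 0.052 to 0.0757) and without any 1 of 11 arrays (all but E14 Notch1+ replicate 1, P0 Notch1+ replicate 4 and P0 Retina replicate 3, adjusted p = 0.0504 to 0.157), respectively.

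Kcnd2, which encodes an A-type channel of neurons, was above background in P0 Retina only. Kcnd2 read 200.4, 191, 116 and 197 in P0 Retina, where replicate 3 was below background, and 71.8, 67.0, 67.0 and 77.8 in P0 Notch1+ cells. In P0 Notch1+ cells Kcnd2 was at least 1.19-fold lower and it was at least 1.27-fold lower in E14 Retina. Kcnd1, a second A-type channel, and Kcnc4, a Shaw-type channel, were called in none of the 4 comparisons.

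All 3 kept Kcnip genes were brightest in P0 Retina. The Kcnip proteins bind calcium and attach to Kcnd channels, whose current they increase, and Kcnip3 is also known as a transcriptional repressor. Kcnip1 read 348, 174, 176 and 337 in P0 Retina, 58.5, 61.2, 64.2 and 64.7 in P0 Notch1+ cells, 92.2, 87.4 and 104 in E14 Retina and 56.9, 54.0 and 61.3 in E14 Notch1+ cells. Kcnip3 read 846, 768, 727 and 936 in P0 Retina, 158, 125, 157 and 203 in P0 Notch1+ cells, 171, 159 and 158 in E14 Retina and 114, 121 and 106 in E14 Notch1+ cells. Kcnip4 read 309.5, 217, 222 and 199 in P0 Retina, 90.8, 89.8, 88.6 and 108 in P0 Notch1+ cells, 129, 142 and 136 in E14 Retina and 122, 102 and 95.8 in E14 Notch1+ cells. For all 3 genes every P0 Retina array was above every array of the other groups. Kcnip3 passed the background limit also without P0 Retina, and had a log2 change of -2.37 (adjusted p = 1e-06, SE 0.16) of Notch1+ over Retina at P0 and a log2 change of -2.33 (adjusted p = 2.83e-06, SE 0.17) of E14 over P0 Retina. Kcnip1 and Kcnip4 passed through P0 Retina, so that their values are a description. In P0 Notch1+ cells Kcnip1 was at least 1.7-fold and Kcnip4 at least 1.62-fold lower, and in E14 Retina Kcnip1 was at least 1.81-fold lower than in P0 Retina. On the E14 Notch1+ arrays all 3 were below background, so that their difference at E14 has no measured size. Kcnip1 was above background on no array of the other 3 groups.

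The start regions of these 3 Kcnip genes are shown because all 3 genes were brightest in P0 Retina, with the letters CAGATG, an E-box of the kind that proneural basic helix-loop-helix factors bind, searched on both strands (as CAGATG or CATCTG) and printed in capitals. RefSeq windows from 250 bases before to 50 after each start (GRCm38.p6) were at hand for 27 of the 44 kept genes. CAGATG was present in 10 of their 43 windows, for 7 genes (Cacna1c, Cacnb3, Kcnip1, Kcnip3, Kcnip4, Kcnk2 and Kcnn1), and in 17.2% of all 32851 windows. The motif does not overlap with the other one searched. A match is a description of these letters and not a binding site. The stretches of 100 bases around the match, all on the minus strand, are printed 5′ to 3′ of that strand, and counted from the start of transcription the first base of the match lies at -182 and -148 for the 2 starts of Kcnip1, at -228 for Kcnip3 and at -109 and -169 for the 2 starts of Kcnip4.
Kcnip1 (chr11:33843816-33843915): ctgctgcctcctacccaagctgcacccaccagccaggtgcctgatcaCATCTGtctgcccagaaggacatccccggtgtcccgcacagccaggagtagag
Kcnip1 (chr11:33680778-33680877): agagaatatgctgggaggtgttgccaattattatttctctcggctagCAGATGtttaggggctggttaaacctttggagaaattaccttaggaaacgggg
Kcnip3 (chr2:127522245-127522344): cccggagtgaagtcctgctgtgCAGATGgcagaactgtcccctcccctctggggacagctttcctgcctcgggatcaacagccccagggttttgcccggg
Kcnip4 (chr5:49285716-49285815): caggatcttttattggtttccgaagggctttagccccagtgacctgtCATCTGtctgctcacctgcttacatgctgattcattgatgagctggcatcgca
Kcnip4 (chr5:48599799-48599898): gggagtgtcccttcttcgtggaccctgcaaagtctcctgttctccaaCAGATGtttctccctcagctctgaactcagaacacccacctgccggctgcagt

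The other accessory potassium subunits were called in some comparisons only. Kcnab2, a cytoplasmic beta subunit related to oxidoreductases, was above background on every array and was not called between Notch1+ cells and Retina (log2 change of -0.25, adjusted p = 0.451, SE 0.21 at P0). It was higher at P0 in both, at 3195, 3213, 2234 and 2337 in P0 and 1438, 1003 and 968 in E14 Notch1+ cells (log2 change of -1.28, adjusted p = 0.00428, SE 0.23 of E14 over P0), and at 4305, 2832, 2351 and 3774 in P0 and 1159, 1198 and 1232 in E14 Retina (log2 change of -1.43, adjusted p = 0.00129, SE 0.23). The stages did not overlap. Kcnab3 was called in no comparison. Of the single-pass Kcne subunits, Kcne1 read 178, 149, 150.0 and 164 in P0 Retina and 84.0, 108, 97.0 and 88.0 in P0 Notch1+ cells, which did not overlap. It was at least 1.11-fold lower in P0 Notch1+ cells than in P0 Retina, a description since it passed through P0 Retina. Kcne1l, also named Kcne5, was lower in E14 than in P0 Retina, at 161, 164 and 134 against 219.9, 312, 489 and 374 (log2 change of -1.13, adjusted p = 0.00917, SE 0.25), and Kcne4 was called in no comparison.

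Kcng4 and Kcnv2 encode silent subunits, which form no channel alone and alter the channels they join, and their patterns were opposite. Kcng4 was above background on the 3 E14 Notch1+ arrays only. It read 232, 225 and 223 there, 114, 133 and 118 in E14 Retina, 84.0, 89.8, 94.5 and 88.0 in P0 Notch1+ cells and 94.1, 95.01, 99.97 and 104 in P0 Retina, and the 3 E14 Notch1+ arrays were above all others. At E14 its level in Notch1+ cells exceeded that in Retina by at least 1.67-fold, and within Notch1+ cells it was at least 1.57-fold above its level at P0, which is a description, since Kcng4 passed the background limit through the E14 Notch1+ arrays alone. A second Kcng4 probe was above background on no array. One start of Kcng4 has the letters TAATCC, of the kind bound by Otx2 and Crx, with the first base at -5 (minus strand, GRCm38.p6, capitals as before), and is shown because Kcng4 alone was above background in E14 Notch1+ cells only. TAATCC (or GGATTA) was present in 2 of the 43 windows of the kept genes, those of Kcng4 and Cacna1c, and in 7.06% of all windows.
Kcng4 (chr8:119635680-119635779): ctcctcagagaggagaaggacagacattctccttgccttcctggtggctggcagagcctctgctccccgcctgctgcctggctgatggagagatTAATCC

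Kcnv2, a subunit that photoreceptors use and that is mutated in a human cone dystrophy, was brightest in P0 Retina. It read 529.8, 418, 731 and 547 there, 155, 154, 124 and 208 in P0 Notch1+ cells, 99.0, 96.1 and 91.5 in E14 Retina and 84.8, 78.5 and 91.5 in E14 Notch1+ cells. The P0 groups did not overlap each other or the E14 arrays, and none of the 6 E14 arrays was above background. Kcnv2 passed the background limit through P0 Retina, and Retina at P0 was at least 4.04-fold above E14, as a description. Within Notch1+ cells, P0 was at least 1.08-fold above E14 (adjusted p = 0.0153), a call lost without E14 Notch1+ replicate 2 (adjusted p = 0.059).

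Kcnh2, a channel of the ether-a-go-go family that repolarizes heart muscle, was above background on all arrays and was the 1 member called higher at E14 in both populations. It read 1481, 1274 and 1720.0 in E14 and 742, 752, 649.6 and 726 in P0 Notch1+ cells (log2 change of 1.05, adjusted p = 0.00483, SE 0.19), and 1494, 1026 and 1462 in E14 and 657, 772, 667 and 1001 in P0 Retina (log2 change of 0.78, adjusted p = 0.0173, SE 0.19). The stages did not overlap, and the Retina call was lost without E14 Retina replicate 1 or 3 (adjusted p = 0.0776 and 0.0741).

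**Figure D4:**
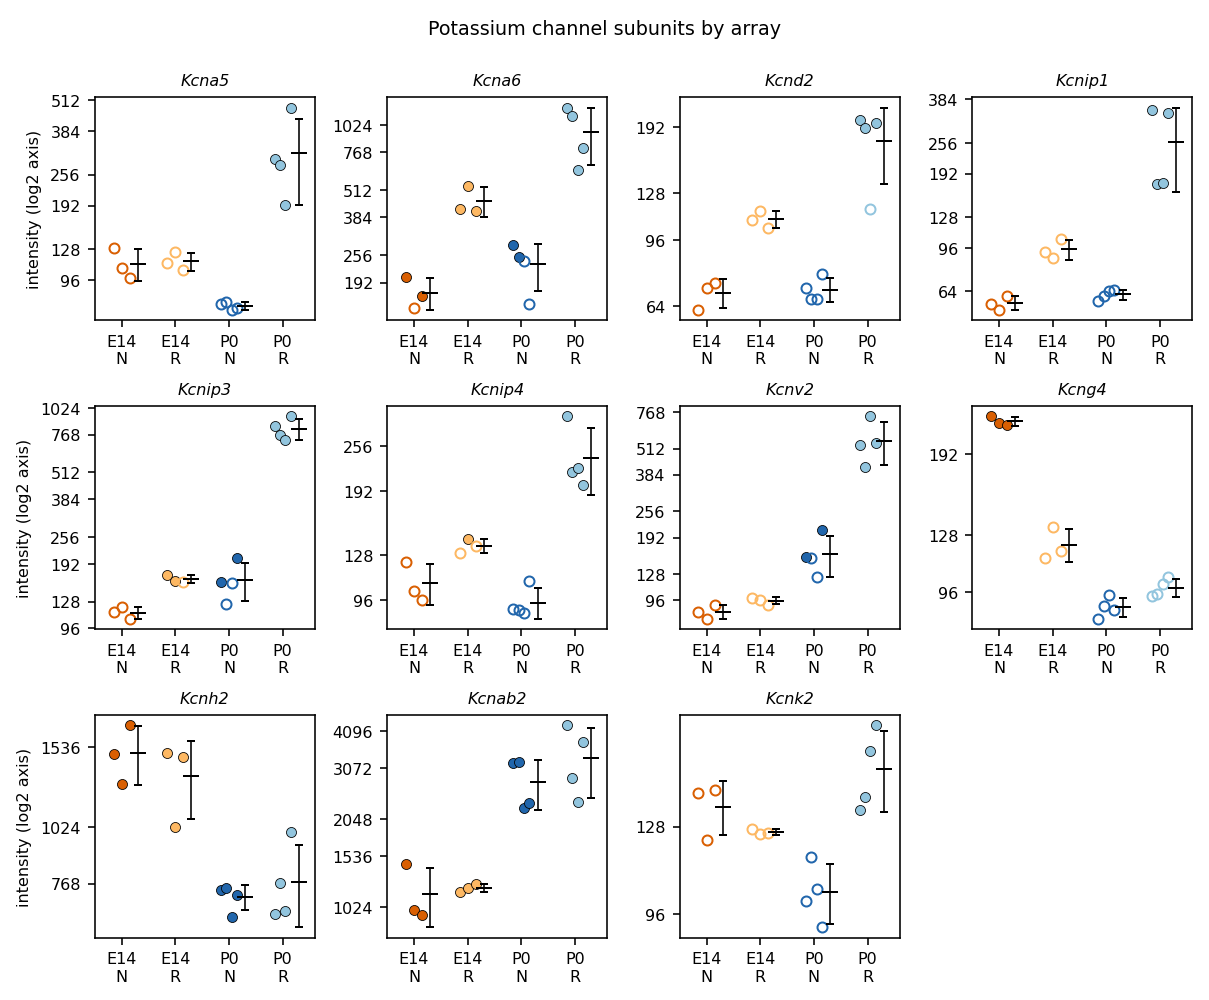
Normalized intensity (log2 axis) of 11 potassium channel genes on each array of E14 Notch1+ (E14 N), E14 Retina (E14 R), P0 Notch1+ (P0 N) and P0 Retina (P0 R), with filled circles for arrays above background, open circles for the others and bars for the mean ± SD. The 3 Kcnip genes, Kcna5 and Kcnv2 are highest on the P0 Retina arrays, Kcng4 on the 3 E14 Notch1+ arrays and Kcnh2 on the E14 arrays.

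The channels opened by calcium, the inward rectifiers and the leak channels were called for 1 of 6 kept genes. Kcnmb4, a subunit of the large calcium-activated channel, Kcnn1, a small-conductance channel opened by calcium, and Kcnj4, an inward rectifier, were called in no comparison. Kcnn1 had the widest difference of these at E14, with 261, 445 and 529.6 in Notch1+ cells and 876, 753 and 978 in Retina, which did not overlap but missed the threshold (log2 change of -1.13, adjusted p = 0.0769, SE 0.35). Of the leak channels, Kcnk1 and Kcnk3 were called in no comparison, and Kcnk2 was above background in P0 Retina only. Kcnk2 read 135, 141, 164 and 179 in P0 Retina and 100.2, 116, 104 and 91.9 in P0 Notch1+ cells, at least 1.06-fold lower in the latter, a description since it passed through P0 Retina, and with each array set to 1 median or 1 common 75th percentile the difference turned its direction (measured log2 differences of 0.05 and 0.13).

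Between the stages, 20 members were called in Retina and 12 in Notch1+ cells, counts that were 18 in both with the authors' value table and 19 and 18 with a common 75th percentile. Of all 13683 tested probes, 2321 in Retina and 1970 in Notch1+ cells were called with the value table, and 2154 and 2032 with the common 75th percentile. In E14 over P0 Retina 3 members were called higher (Scn3b and Kcnh2 among them) and 17 lower, beside 6.60% of all tested probes called higher and 7.66% lower (14.3% either way), with a median log2 fold change of -0.45 beside 0.00 over all tested probes. In E14 over P0 Notch1+ cells 3 were called higher (Kcng4, Kcnh2 and Cacna1c) and 9 lower, beside 5.15% and 5.85% of all tested probes (11.0% either way), with a median of -0.24 beside 0.01. 5 probes, those of Cacna1h, Kcnab2, Kcnv2 and 1 of Cacna1g among them, were lower at E14 in both populations, beside 2.25% of all tested probes. Of those named, Kcnv2 passed the background limit through P0 Retina, so that the limit fixed its direction in Retina. Of the 17 lower in E14 Retina, 7 were among the 15 probes that passed through P0 Retina, and Scn3b passed through E14 Retina. As the P0 Retina arrays took part in both the stage comparison and the comparison with Notch1+ cells, a gene bright in P0 Retina only can be called in both. Beside these, 6 markers of ganglion cells were higher and 1 was lower for E14 over P0 Retina, 0 and 7 of amacrine and horizontal cells, 0 and 5 of photoreceptor precursors, 5 and 1 of young neurons and 3 and 0 of erythroid cells, and their part in the channel results was not tested. With a common 75th percentile 16 members were called lower at E14 in Notch1+ cells and 16 in Retina, beside 1732 and 956 of all tested probes. In models of the compared groups alone 5 and 14 members were, beside 420 and 867 of all tested probes. Over all 4 groups, 30 of the 47 members passed limma's F-test, beside 34.4% of all tested probes. That count does not set apart the 15 probes that passed through P0 Retina, nor Kcng4 and Scn3b. For these the background limit itself favored a difference between groups.

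The 16 probes called in no test at all were those of Cacna1b, Cacna2d1, Cacna2d3, Cacng4, Hcn3, Kcnab3, Kcnd1, Kcne4, Kcnj4, Kcnk1, Kcnk3, Kcnmb4, Kcnn1 and Scn8a and both of Cacnb3. Beside Cacnb3, 5 of these genes were above background on every array, and their intensities over the 14 arrays ran from 417 to 2213 for Cacng4, 678 to 2538 for Kcnk1, 261 to 978 for Kcnn1, 206 to 676 for Kcnmb4 and 175 to 1046 for Cacna2d3. In these the spread within a group was wide, as in the P0 Notch1+ arrays of Cacng4, which read 1642, 768, 417 and 2039. The dimmer members ran from 187 to 373 for Cacna2d1, 129 to 465 for Kcnab3, 126 to 385 for Kcnk3, 122 to 191 for Kcnj4, 126 to 176 for Kcne4 and 109 to 216 for Kcnd1. Kcnj4 and Kcnd1 were above background on 4 and 3 of the 4 P0 Notch1+ arrays, respectively, and on no E14 Notch1+ array.

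**Figure D5:**
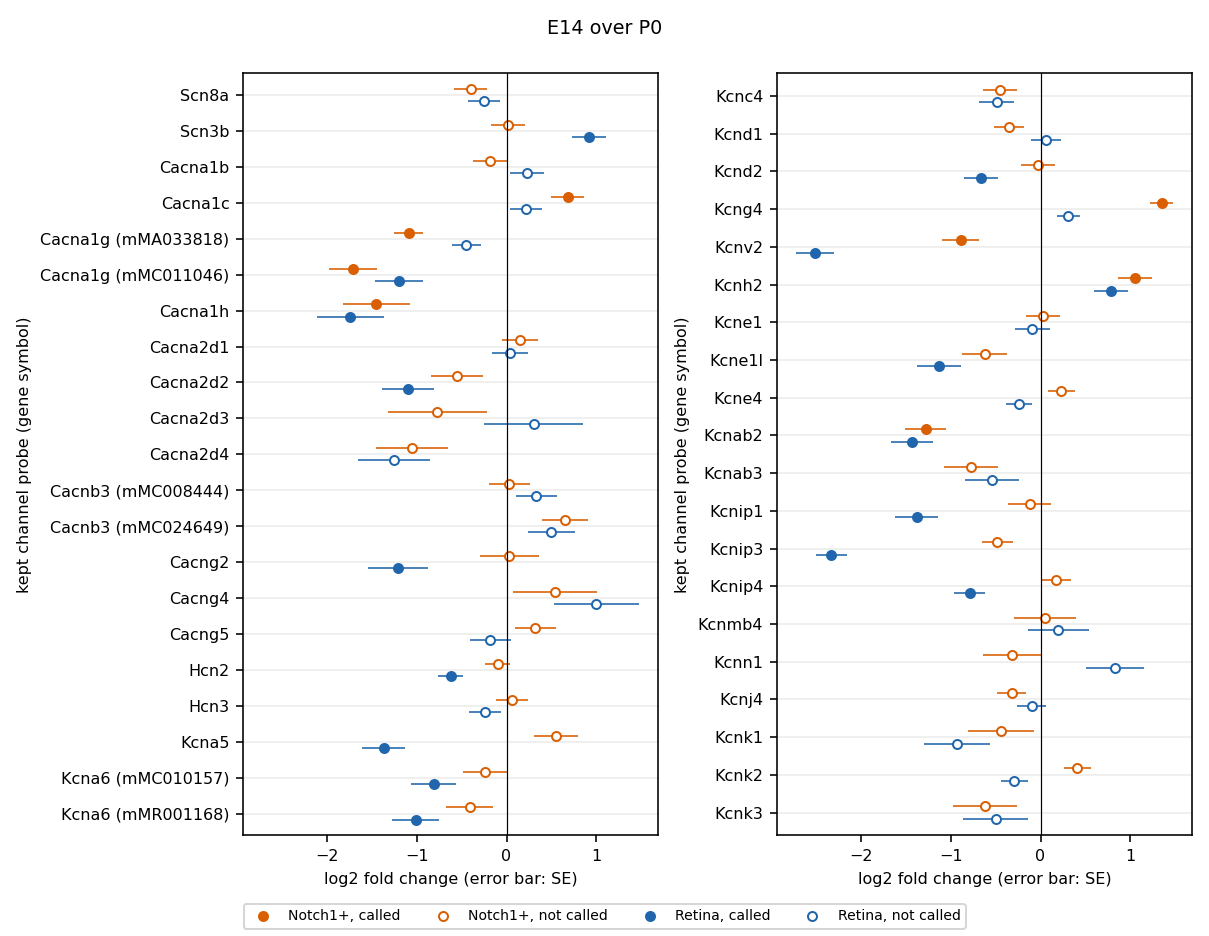
Log2 fold change of E14 over P0 for 41 of the 47 kept channel probes in Notch1+ cells (orange, 3 against 4 arrays) and in Retina (blue, 3 against 4 arrays), with the SE from limma as error bars and filled circles for an adjusted p under 0.05, differences against groups below background being as measured and not folds. Most called probes lie to the left of 0 and so were higher at P0 and Kcnv2 and Kcnip3 in Retina are farthest.

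The difference of Notch1+ cells from Retina itself differed between the stages for 6 members, 5 relatively higher in Notch1+ cells at E14 and 1 lower, beside 1.53% and 0.950% of all tested probes (2.48% either way). Among those relatively higher at E14 were Kcna5, Kcnip3, Kcnv2 and Kcng4. No E14 array was above background for Kcna5 and Kcnv2, no P0 Notch1+ array for Kcna5, no P0 array for Kcng4 and no E14 Notch1+ array for Kcnip3, so that the size of the stage difference is not known for any of the 4. Kcna5 and Kcnv2 passed the background limit through P0 Retina and Kcng4 through E14 Notch1+, so that the test bears on Kcnip3 alone of these 4 (adjusted p = 0.0031). The call of Kcng4 was lost with 1 median or 1 common 75th percentile (adjusted p = 0.319 and 0.431) and that of Kcnv2 with the authors' value table (adjusted p = 0.0811).

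Of 23 genes whose products hold channels in place or regulate them, 12 were called lower in P0 Notch1+ cells. Of these 23 tested channel partner genes, such as ankyrins, contactin-associated proteins, fibroblast growth factor homologs, scaffolds and the release machinery, 2 were lower and 0 higher in Notch1+ cells at E14 and 12 were lower and 0 higher at P0, beside 3.22% and 10.7% of all tested probes called lower, with median log2 fold changes of -0.24 and -0.93 beside 0.01 over all tested probes at both stages. Dpp10 and Gem were above background on P0 Retina arrays only and, like Fgf12, passed the background limit through that group. The P0 counts and median include such genes, whose direction the limit fixed, without setting them apart. Cntnap2, which clusters Shaker-type channels along axons, was lower at E14 (log2 change -2.48, adjusted p = 0.000483, SE 0.31), as was the syntaxin gene Stx1a (log2 change -1.32, adjusted p = 0.0464, SE 0.36). Fgf12, whose product binds sodium channels, was at least 2.36-fold lower at P0, a description since it passed through P0 Retina, and Snap25, a protein of the release machinery that is also on the list of young neuron markers, was lower too (log2 change -1.98, adjusted p = 0.00906, SE 0.47). Between the stages 2 partner genes fell from E14 to P0 within Notch1+ cells, the ankyrin gene Ank2 (E14 over P0, log2 change 2.41, adjusted p = 0.000763, SE 0.33) and Rem2 (log2 change 1.68, adjusted p = 0.0227, SE 0.42), a GTPase that inhibits calcium channels, and within Retina 2 fell and 6 rose from E14 to P0, Ank2 (E14 over P0, log2 change 1.75, adjusted p = 0.00356, SE 0.33) and Snap25 (log2 change -1.62, adjusted p = 0.046, SE 0.50) having the largest changes. Of 10 tested pump and chloride transporter genes, which keep the ion gradients that the channels use, 1 was higher in Notch1+ cells at E14, the sodium-calcium exchanger Slc8a3 (log2 change 1.43, adjusted p = 0.0389, SE 0.37), and 1 was higher and 4 lower at P0. At P0 the sodium pump subunit Atp1b1 was lower (log2 change -2.45, adjusted p = 0.0161, SE 0.64) and Slc12a5, the chloride exporter of mature neurons, was at least 2.66-fold lower, likewise a description. In E14 over P0 Notch1+ cells 2 of these 10 genes were higher and 1 lower, and in Retina 0 were higher and 2 lower, Atp1b2, another pump subunit, being lower in both (log2 change -1.65, adjusted p = 0.0137, SE 0.37 in Notch1+ cells; log2 change -1.69, adjusted p = 0.0085, SE 0.37 in Retina).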

How the data were processed

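RNA of 14 samples was hybridized singly to MEEBO arrays and scanned at 635 nm. The deposited GenePix files give, for each of 38880 spots, a foreground and a local background intensity on a linear scale, as the scanner software of the authors measured them before normalization. The value table deposited by the authors holds log2 values. With a factor per array, 34248 of its 34279 lines matched the background-subtracted intensities of a mouse probe, and all but 25 values were whole multiples of the factor (tolerance 0.01). It served as an alternative. Intensities were corrected with normexp (offset 50), quantile normalized over the 34312 mouse probes, set to log2 and tested with limma 3.58.1 (R 4.3.3) as 4 group means, with Benjamini-Hochberg adjustment over the 13683 probes that passed the background limit on 3 or more arrays. Where a group had no reading above background, a fold is a bound, the mean of the bright group over the higher of the lowest signal well above background and the probe's own signal on each dim array, and any log2 difference printed or plotted for such a group is as measured and not a fold. Transcripts were named through RefSeq, with a gene for 23430 mouse probes. The members and all gene lists were chosen with earlier results of these data known. Some members are counted but not reported by name here. The other kept probes were accounted for, and those called with the largest changes were given in full. The test was tried on simulated data first. Alternatives were other background corrections, scalings, filters and models, the replicate number as a block, the methods' t-test and leaving out each array in turn. The number of arrays limits the precision.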

Additional observations from a re-analysis of the deposited data

Results flagged for a closer look

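In 7 of the 94 groups of 4 arrays, 1 array lay far from the other 3 by Dixon's criterion, which chance meets in about 1 in 20 groups. Among them were dim readings below background: Cacng5 read 81.9 on P0 Notch1+ replicate 1 beside 64.25 to 64.68 on the others and Kcnip4 read 108 on P0 Notch1+ replicate 4 beside 88.61 to 90.83. Kcnd2 read 116 on P0 Retina replicate 3 beside 190.9 to 200.4. Kcnmb4, the calcium-activated channel subunit, read 206 on P0 Retina replicate 1 beside 494.5 to 563.9.

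The difference of Notch1+ cells from Retina itself differed between E14 and P0 for 6 members by the interaction term in limma. Among them, the E14 difference minus the P0 difference was, on the log2 scale, 1.92 for Kcna5, 1.85 for Kcnip3 (adjusted p = 0.0031), 1.62 for Kcnv2 and 1.04 for Kcng4. These are measured differences whose size is not known, since each gene was below background in at least 1 of the groups, and Kcna5, Kcnv2 and Kcng4 were kept through a group that enters the difference.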

How the results depend on the processing

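Of 1574 values recomputed under alternatives, 1571 kept their direction, and 23 of 64 called results passed the threshold under every alternative run. The 3 reversed values were those of P0 Notch1+ over Retina for Hcn2 (0.03 with a common 75th percentile) and Kcnk2 (0.05 with 1 median, 0.13 with a common 75th percentile). Members called higher in Notch1+ cells at P0, 2 in the report, were 10 with 1 median and 11 with a common 75th percentile. They were 0 with the value table or the re-dip mark. With the compared groups alone or the methods' t-test after Benjamini-Hochberg they were 1, and with that t-test unadjusted 4. A stricter filter, for probes above background on every array of at least 1 group, also gave 1. At E14 the 1 higher and 6 lower were 4 and 15 with the t-test unadjusted, 2 lower with it adjusted and 10 lower with the value table. Over all tested probes the same counts were 1098 and 1267, 100 lower and 674 lower. In E14 over P0 Notch1+ cells the 3 higher were 6 with the value table, 5 without a filter and 8 with the t-test unadjusted, and the 9 lower were 16 with a common 75th percentile, 5 with the compared groups alone, and 1 and 15 with the t-test adjusted and unadjusted. In Retina the 3 higher were 1 with the value table, and 1 and 6 with the t-test adjusted and unadjusted, and the 17 lower were 8 with it adjusted. The cause was not tested.

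Leaving out each array gave 1 to 1 higher and 4 to 7 lower at E14, 1 to 2 and 17 to 18 at P0, 2 to 3 and 5 to 10 in E14 over P0 Notch1+ cells, 2 to 3 and 12 to 18 in Retina, 5 to 8 for the stage difference and 28 to 32 for the F-test, and 16 of 64 called results lost their call at least once. Over all probes, P0 Notch1+ over Retina gave 1224 higher and 1466 lower, 3434 and 1119 with 1 median, 4252 and 970 with a common 75th percentile, 780 and 2273 with the value table and 523 and 712 with the re-dip mark. In E14 over P0 Notch1+ cells 704 higher and 801 lower became 353 and 1283, 300.0 and 1732, and 1188 and 782 with the first 3 of these.

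The replicate numbers share no stated origin, and deviations of same-numbered samples correlated at -0.0566 to 0.0444 at E14 and -0.0006 to 0.0841 at P0, so that no pairing by number was seen. Whether same-numbered samples came from 1 preparation is not known. With the replicate block 0 members were called higher and 0 lower at E14, 1 was higher at P0, and 2 had a stage difference, with Kcna5, Kcnv2 and Kcng4 among those lost (adjusted p = 0.0551 to 0.0739).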
